A study of Mus musculus with 6 samples.

Results

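Liver sinusoidal endothelial cells line the capillaries of the liver, and 10 genes that mark them or their conversion to ordinary capillary endothelium were followed in bulk liver RNA: Stab1, Stab2, Lyve1, Oit3, Kdr, Wnt2, Rspo3, Gata4, Cd34 and Plvap. They were chosen by symbol with earlier results of these data known, as were the other gene lists used below. All 10 were found among the 56847 genes of the deposited tables, and all 10 passed the filter on low counts. There were 3 liver libraries from mice fed CDAHFD, a high-fat diet without choline and with defined amino acids in place of protein, which is used in mice to produce steatohepatitis and fibrosis. Against them stood 3 liver libraries from mice fed a normal diet. The sources used here do not give strain, sex, age or time on the diet, nor whether each library came from its own animal, and they name no genetic change. P-values therefore measure the spread between these samples, which may be technical. The study asked about steatohepatitis and the proline synthesis enzyme ALDH18A1, with lipid and mitochondrial pathways in its design text, and the endothelium is a side question put to the same RNA.

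Sinusoidal endothelial cells have open pores (fenestrae) and no continuous basement membrane, and they clear waste molecules from blood through scavenger receptors. They also send signals to their neighbours: those near the central vein release Wnt2 and R-spondin 3, which maintain the gene program of pericentral hepatocytes. The transcription factor GATA4 is needed in mice for this sinusoidal identity. In chronic liver injury the cells can lose pores, gain a basement membrane and take up markers of continuous vessels such as CD34, a change called capillarization.

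Libraries held 21986215 to 25628531 counts. With TMM scaling, which assumes that most genes are unchanged, edgeR's quasi-likelihood test called 28.5% of 14215 tested genes higher on CDAHFD and 23.5% lower at an adjusted p of 0.05. The choice of scaling matters in these livers: total counts shifted the median gene by 0.32 on the log2 scale, giving 44.0% higher and 8.08% lower. The livers also differed in their cell markers. Hepatocyte markers summed to 115395 to 125188 CPM (counts per 1000000, TMM-scaled) on CDAHFD, against 144075 to 166370 CPM on normal diet. With TMM 8 of 10 were called lower. In deposited TPM (transcripts per 1000000, not TMM-scaled) their sums overlapped, at 146053 to 150254 on CDAHFD and 138173 to 158504 on normal diet. Macrophage markers summed to 1491 to 1689 CPM on CDAHFD, against 193 to 249 CPM on normal diet, and 7 of 7 were called higher. Throughout, ± is the SD over 3 libraries for a level and the SE for a log2 fold change. In bulk RNA, fewer cells of a type and less RNA per cell cannot be told apart.

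Both capillarization markers, Cd34 and Plvap, rose on CDAHFD with the 2 largest fold changes of the 10 genes. Under TMM no sinusoidal identity gene among the 10 passed as lower. Oit3 and Kdr did pass as lower when scaled to pan-endothelial genes or without CDAHFD replicate 3. With TMM 5 of the 10 genes rose (Cd34, Plvap, Lyve1, Stab1 and Gata4), 0 fell and 5 did not pass, where the same test called 28.5% of all genes higher and 23.5% lower. Of the 8 identity genes 3 rose, with a median log2 fold change of 0.20, and the median over all 10 was 0.33, against 0.01 over all tested genes. A rise of at least 2-fold was called for 2 of the 10 genes, Cd34 and Plvap, and for 18.4% of all genes. By CPM, the libraries of the 2 diets did not overlap for 7 of the 10, with CDAHFD above for 6 and below for 1, Oit3, while CDAHFD lay above for 32.2% of all genes and below for 28.4%.

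**Figure D1:**
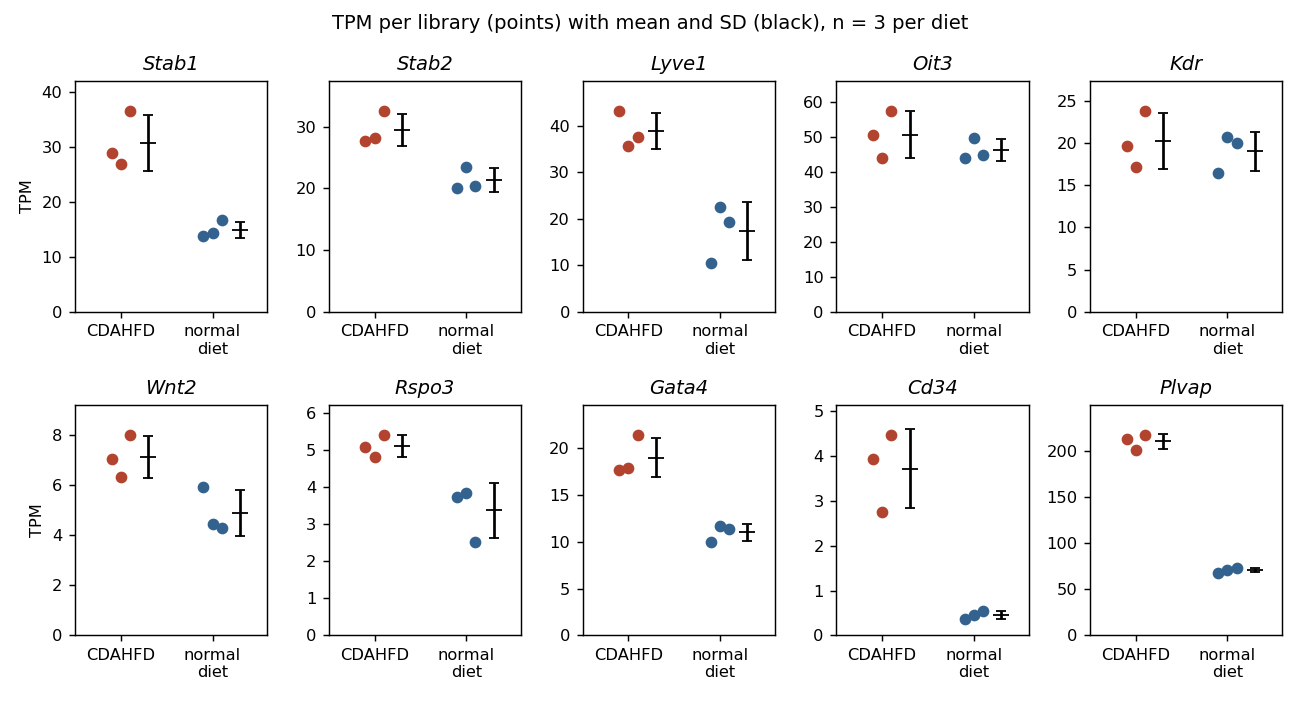
Deposited TPM (transcripts per 1000000, scaled by gene length and not by TMM) of the 10 genes in each liver library, CDAHFD in red and normal diet in blue, with the mean and SD in black (n = 3 per diet) and a linear axis from 0 in each panel. The diets overlap for Oit3 and Kdr, and the other genes lie higher in all CDAHFD libraries, most widely Cd34 and Plvap. The share of all genes that separate in TPM was not computed. For scale, limma on log2(TPM + 1) called 45.4% of all genes higher.

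Cd34, a sialomucin of the surface of continuous capillaries and of some fibroblasts and blood progenitors, showed the largest change of the 10. It had 225, 185 and 261 counts in the CDAHFD libraries, against 23, 27 and 33 counts in the normal diet libraries. Every CDAHFD library thus held several times the count of any normal diet library, although the gene stayed a minor transcript. Its level was 8.63 ± 1.82 CPM on CDAHFD and 1.37 ± 0.262 CPM on normal diet (SD, n = 3 each), a log2 fold change of 2.65 ± 0.23 (SE, adjusted p = 3.96e-06 by edgeR's quasi-likelihood test). Only 4.12% of the tested genes had an equal or larger log2 fold change. Portal fibroblast markers moved with it: they summed to 43.6 to 61.4 CPM on CDAHFD and 5.92 to 13.5 CPM on normal diet, and 5 of the 5 tested were called higher, with Pi16 at 0.603 ± 0.16 CPM on CDAHFD and 0.033 ± 0.0286 CPM on normal diet and Clec3b at 2.37 ± 0.75 CPM on CDAHFD and 1.07 ± 0.248 CPM on normal diet. Pi16 and Gli1 were at 0 in at least 1 normal diet library. The part of such cells in the Cd34 result was not tested.

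Plvap encodes the protein of the diaphragms that span endothelial pores and caveolae, and the pores of adult sinusoidal endothelium largely lack such diaphragms. Its CPM was 134, 132 and 135 on CDAHFD and 57.3, 55.4 and 61.3 on normal diet. The 3 CDAHFD libraries were nearly equal and all lay above the normal diet range. The log2 fold change was 1.20 ± 0.10, or 2.3-fold (edgeR adjusted p = 2.31e-06). By TPM, Plvap was the most abundant of the 10 genes in both diets, at 210 ± 7.99 TPM on CDAHFD and 70.7 ± 2.57 TPM on normal diet (SD, n = 3 each). The transcript was thus far from absent on normal diet, so its presence alone does not mark capillarization here. Which vessels made it was not tested. Cd34 was the least abundant in both, at 3.71 ± 0.884 TPM on CDAHFD and 0.454 ± 0.0851 TPM on normal diet.

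The sequences upstream of the start site are shown for 3 genes with different responses: Cd34 with the largest rise, Stab1 with a smaller rise and its paralog Stab2, which did not pass. They are the 250 bases before each start in RefSeq's promoter set for GRCm38.p6, matched by symbol, while the deposited tables were made on GRCm39. Windows were found for 5 of the 10 genes (Cd34, Stab1, Stab2, Kdr and Wnt2). Capitals mark matches to a core motif of ETS factors, AGGAAG or its reverse complement CTTCCT. Both motifs searched were picked after the values were seen.
Cd34, chr1:194938571-194938820, plus strand: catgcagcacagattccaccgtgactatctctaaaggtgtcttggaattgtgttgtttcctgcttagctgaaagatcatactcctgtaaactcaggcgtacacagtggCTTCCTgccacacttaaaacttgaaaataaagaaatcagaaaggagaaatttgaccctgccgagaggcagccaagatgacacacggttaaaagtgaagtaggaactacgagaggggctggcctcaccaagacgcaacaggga
Stab1, chr14:31168642-31168891, minus strand: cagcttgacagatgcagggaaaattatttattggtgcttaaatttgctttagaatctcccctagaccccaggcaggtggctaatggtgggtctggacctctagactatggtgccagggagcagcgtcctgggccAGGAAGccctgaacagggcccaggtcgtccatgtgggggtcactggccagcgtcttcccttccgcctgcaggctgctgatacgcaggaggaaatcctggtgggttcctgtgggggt
Stab2, chr10:87007943-87008192, minus strand: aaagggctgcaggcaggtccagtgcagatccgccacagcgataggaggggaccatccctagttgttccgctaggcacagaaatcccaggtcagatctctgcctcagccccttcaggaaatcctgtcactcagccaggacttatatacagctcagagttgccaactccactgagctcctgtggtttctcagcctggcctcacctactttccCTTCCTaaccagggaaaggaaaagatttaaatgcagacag

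Each of these windows held 1 match to these ETS letters, starting 142 bases before the start site in Cd34, 116 in Stab1 and 40 in Stab2. The Kdr and Wnt2 windows held 0. Among all 32851 windows of the same length 29.5% held at least 1, and the match was present in Cd34 and Stab1, which rose, as well as in Stab2, which did not pass. A single strict form of the GATA motif (AGATAA or TTATCT, no overlap with the ETS letters) was in 0 of the 5 windows and in 9.99% of all windows. Other forms of either motif were not searched, so the windows cannot be said to lack GATA sites. Nor can the Kdr and Wnt2 windows be said to lack ETS sites. The share of G and C was 46.4% in Cd34, 57.2% in Stab1 and 53.2% in Stab2, with a median of 52.4% over all windows.

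Of the 3 scavenger or hyaluronan receptor genes, Stab1 and Lyve1 rose and Stab2 did not pass with TMM. Stab1 and Stab2 encode stabilins, large receptors that take up hyaluronan, modified lipoproteins and other waste, and Stab1 is also made by some macrophages. Stab1 had 94.6, 91.1 and 117 CPM on CDAHFD, against 59.8, 57.6 and 72.5 CPM on normal diet, and rose by 0.67 ± 0.13 on the log2 scale (edgeR adjusted p = 0.00126). Stab2, the more endothelial of the pair, had 77.1, 81.8 and 88.7 CPM on CDAHFD, against 74.6, 80.3 and 75.7 CPM on normal diet. Its libraries overlapped, and it did not pass, with a log2 fold change of 0.10 and a 95% interval of -0.12 to 0.32 (edgeR adjusted p = 0.417).

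Lyve1, a hyaluronan receptor of sinusoidal and lymphatic endothelium and of some macrophages, had 39.9, 34.4 and 34.2 CPM on CDAHFD, against 13.0, 25.7 and 23.8 CPM on normal diet. The CDAHFD libraries all lay above the normal diet ones, and normal diet replicate 1 was the lowest of the 6. Lyve1 rose by 0.80 ± 0.20 (edgeR adjusted p = 0.00683), and by 0.54 ± 0.13 without that library (adjusted p = 0.0083). Markers of the other cells that can make Lyve1 and Stab1 also moved. Among macrophage markers, Adgre1 (F4/80) had 54.5 ± 8.46 CPM on CDAHFD and 18.6 ± 1.72 CPM on normal diet, and Cd68 had 134 ± 19.1 CPM on CDAHFD and 15.4 ± 3.46 CPM on normal diet. Of 5 markers of Kupffer cells, the resident macrophages of the sinusoid, Marco rose by 1.74 ± 0.53 and Cd5l by 0.75 ± 0.19, and the other 3 did not pass, Clec4f (-0.29) and Vsig4 (0.12) among them. Marco and Cd5l were named after their values were seen. Marco was uneven, at 10.1, 47.9 and 11.6 CPM on CDAHFD, against 3.88, 8.71 and 8.29 CPM on normal diet. The size of its rise thus leans on CDAHFD replicate 2. Lymphatic markers summed to 6.72 to 11.8 CPM on CDAHFD and 2.01 to 5.94 CPM on normal diet. Of these 2 of 3 were called higher, Pdpn by 2.68 ± 0.53 and Mmrn1 by 0.91 ± 0.33, where 28.5% of all genes were. Pdpn was sparse, with 22, 15 and 31 counts on CDAHFD, against 4, 3 and 1 on normal diet. The other marker, Ccl21a, named after its value was seen, did not pass (0.82 ± 0.38). No marker of these 3 lists was at 0 in any library, and their part in the Lyve1 and Stab1 results was not tested.

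Oit3 encodes a secreted zona pellucida-domain protein used in mice as a marker of sinusoidal endothelium. It had 44.6, 40.5 and 49.8 CPM on CDAHFD, against 52.0, 54.1 and 53.0 CPM on normal diet. All CDAHFD libraries lay below all normal diet libraries, but the log2 fold change of -0.24 (95% interval -0.47 to -0.01) did not pass over all genes (edgeR adjusted p = 0.0799). With CDAHFD replicate 3 left out it was -0.35 and passed (adjusted p = 0.0255), and with total counts it changed sign, at 0.09.

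Kdr, the main signalling receptor gene for VEGF-A on endothelium, had 56.4, 51.4 and 67.0 CPM on CDAHFD, against 63.1, 72.9 and 76.6 CPM on normal diet. CDAHFD replicate 3 reached into the normal diet range. The log2 fold change was -0.28 (95% interval -0.55 to -0.01) and did not pass (edgeR adjusted p = 0.0765). With CDAHFD replicate 3 left out it was -0.43 and passed (adjusted p = 0.0183), and with total counts it was 0.04. Of the 12 tested VEGF and angiopoietin genes 5 rose and 2 fell, with a median log2 fold change of 0.36, where 28.5% of all genes rose and 23.5% fell. The ligand gene Vegfa fell by 0.55 ± 0.16 (edgeR adjusted p = 0.0118), with 73.8 ± 16.6 CPM on CDAHFD and 108 ± 9.94 CPM on normal diet (SD, n = 3 each). With total counts it did not pass (-0.23, adjusted p = 0.215). Vegfb did not pass (0.01 ± 0.16). The lymphatic growth factor genes Vegfd and Vegfc rose by 1.61 ± 0.30 and 0.66 ± 0.18. Angpt2, an angiopoietin of remodelling vessels, rose by 0.72 ± 0.27 (edgeR adjusted p = 0.04) but did not pass without CDAHFD replicate 1 or 3 or normal diet replicate 1 or 3, at adjusted p = 0.0796 to 0.145.

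Neither of the angiocrine ligand genes, Wnt2 and Rspo3, passed with TMM. Wnt2 had 5.06, 4.72 and 5.65 CPM on CDAHFD, against 5.69, 3.92 and 4.09 CPM on normal diet, and the diets overlapped. Its log2 fold change was 0.17 (95% interval -0.25 to 0.59, edgeR adjusted p = 0.487). Rspo3 had 4.98, 4.93 and 5.22 CPM on CDAHFD, against 4.91, 4.65 and 3.30 CPM on normal diet. The CDAHFD libraries were all slightly above, and the log2 fold change of 0.23 (95% interval -0.18 to 0.65) did not pass (edgeR adjusted p = 0.325). Both genes were sparse, with 66 to 145 counts per library, and both passed as higher with total counts (0.50 and 0.56).

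Of the 11 tested genes of Wnt and R-spondin ligands, secretion and receptors 2 rose, 2 fell and 7 did not pass, with a median log2 fold change of -0.17. These shares are below the 28.5% higher and 23.5% lower among all genes. Wls, which carries Wnt proteins to the cell surface in secreting cells, had 14.9 ± 1.18 CPM on CDAHFD and 6.45 ± 0.721 CPM on normal diet and rose by 1.20 ± 0.14 (edgeR adjusted p = 3.88e-05). Lgr4, the R-spondin receptor of hepatocytes, had 35.0 ± 2.46 CPM on CDAHFD and 72.1 ± 2.57 CPM on normal diet and fell by 1.04 ± 0.10 (edgeR adjusted p = 7.78e-06). The Wnt coreceptor gene Lrp6 fell by 0.67 ± 0.16, a call that was lost with total counts (-0.35, adjusted p = 0.0738). Wnt9b, the other Wnt of central vein endothelium, did not pass (0.18 ± 0.23), and Wnt2b was too low to test, at 0.444 ± 0.118 CPM on CDAHFD and 0.361 ± 0.148 CPM on normal diet.

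Of 9 tested pericentral target genes of this signal 4 rose and 5 fell, with a median of -0.43, where 28.5% of all genes rose and 23.5% fell. Hepatocytes make most of these, and in the same livers the 10 hepatocyte markers had a median of -0.63 with TMM, with 8 lower and 0 higher. Their summed TPM overlapped between the diets, as given above. Their part in the result was not tested. Oat fell by 1.21 ± 0.25 and Tbx3 by 0.57 ± 0.13, while Lect2 rose by 1.06 ± 0.10. Axin2, a feedback target in many cell types, rose by 0.43 ± 0.16 (edgeR adjusted p = 0.0445) and Glul, the glutamine synthetase gene, by 0.31 ± 0.12 (adjusted p = 0.0438). The Axin2 call was lost without CDAHFD replicate 1 or 3 or normal diet replicate 1 or 2 (adjusted p = 0.114 to 0.179) and the Glul call without any 1 library (adjusted p = 0.0688 to 0.193). The Tbx3 call was lost with total counts (-0.25, adjusted p = 0.154).

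Gata4 rose modestly. It had 21.8, 23.1 and 26.0 CPM on CDAHFD, against 16.5, 17.8 and 18.7 CPM on normal diet. All CDAHFD libraries lay above the normal diet range, and the log2 fold change was 0.42 ± 0.12, or 1.34-fold (edgeR adjusted p = 0.011). The call was lost without CDAHFD replicate 3 (0.32, adjusted p = 0.0635) and without normal diet replicate 1 (0.36, adjusted p = 0.0537). GATA4 is also made by hepatic stellate cells, and their markers moved with it: they summed to 602 to 735 CPM on CDAHFD and 308 to 378 CPM on normal diet, with 7 of 8 called higher, Lrat by 1.09 ± 0.14 and Des by 1.36 ± 0.17. None of these markers was at 0 in any library, and their part in the Gata4 result was not tested.

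Of 20 tested endothelial transcription factor genes 11 rose (28.5% of all genes) and 1 fell (23.5% of all genes). The gene that fell, the GATA cofactor gene Zfpm1, had a log2 fold change of -0.48 ± 0.11 with TMM (named after its value was seen), and the list median was 0.48. In deposited TPM the diets overlapped for Zfpm1, at 47.4 ± 6.57 on CDAHFD and 51.2 ± 4.15 on normal diet. Gata6 rose by 0.56 ± 0.14, Lmo2 by 1.53 ± 0.16 and Lyl1 by 1.90 ± 0.27, the last 2 also active in blood cells. Leukocyte markers moved with them, summing to 37.9 to 54.7 CPM on CDAHFD and 10.4 to 10.9 CPM on normal diet, with Ptprc (CD45) up by 2.17 ± 0.15 and Cd3e up by 2.27 ± 0.35. Gata2, the GATA factor of continuous endothelium, did not pass (0.27 ± 0.27). Zfpm2 rose by 0.97 ± 0.37 at an edgeR adjusted p of 0.0482, and this call was lost without CDAHFD replicate 1 or 3 or normal diet replicate 1 (adjusted p = 0.114 to 0.132).

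Ratios of 2 genes within a library carry no scaling. Per 100 Stab2 counts, Plvap had 174, 162 and 152 counts on CDAHFD, against 76.7, 69.0 and 81.0 counts on normal diet. Cd34 had 11.8, 8.08 and 11.5 per 100 Stab2 counts on CDAHFD, against 1.51, 1.65 and 2.18 on normal diet, a 5.86-fold difference in the ratio. Stab1 (1.49-fold), Lyve1 (1.69-fold) and Gata4 (1.25-fold) were also higher relative to Stab2 in every CDAHFD library than in any normal diet library. Kdr had 73.1, 62.9 and 75.5 counts per 100 Stab2 counts on CDAHFD, against 84.5, 90.8 and 101 on normal diet. Oit3 had 57.8, 49.5 and 56.2 per 100 Stab2 counts on CDAHFD, against 69.7, 67.4 and 70.0 on normal diet. Both were thus lower relative to Stab2 in each CDAHFD library. For these 7 ratios the exact two-sided permutation test gave p = 0.1, the smallest that 3 against 3 allows, so none can pass 0.05. The Wnt2 and Rspo3 ratios overlapped (exact permutation p = 0.7 and 0.6). These 9 ratios, and Stab2 as their base, were picked after the values were seen, and after Benjamini-Hochberg adjustment over the 9 the smallest p was 0.129. How many of all genes separate relative to Stab2 was not computed. By CPM, CDAHFD lay above for 32.2% of all genes and below for 28.4%.

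**Figure D2:**
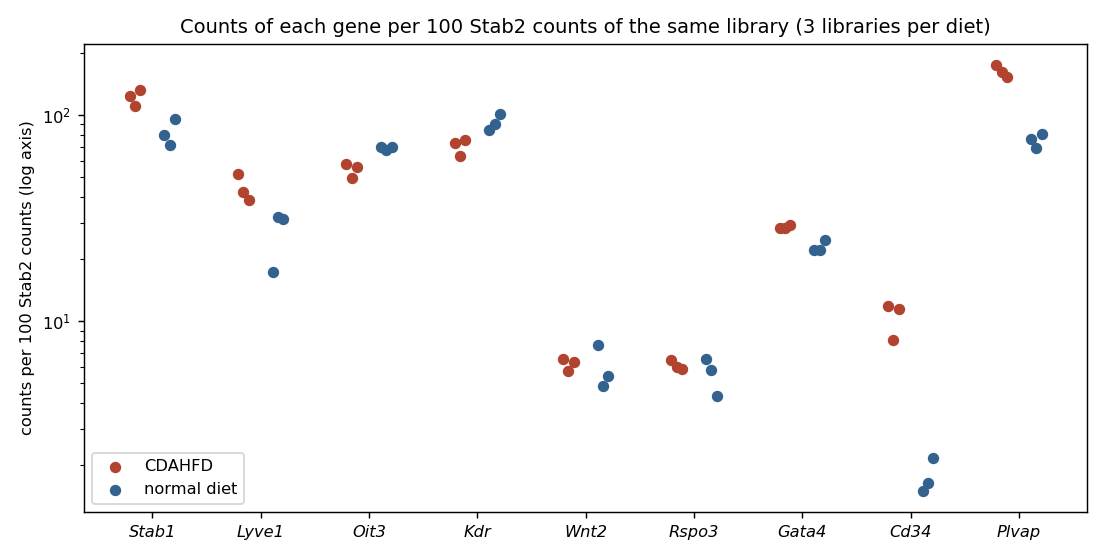
Counts of 9 genes per 100 Stab2 counts of the same library, on a log axis, with the 3 CDAHFD libraries in red and the 3 normal diet libraries in blue. Plvap, Cd34, Stab1, Lyve1 and Gata4 lie higher in all CDAHFD libraries, Oit3 and Kdr lie lower, and Wnt2 and Rspo3 overlap. The share of all genes that separate in this way was not computed.

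The scaling set how many of the 10 genes were called. With total counts 8 were higher and 0 lower (44.0% and 8.08% of all genes), the additional ones being Stab2 (0.43, edgeR adjusted p = 0.00581), Wnt2 (0.50, adjusted p = 0.049) and Rspo3 (0.56, adjusted p = 0.0283). Scaling to the summed counts of hepatocyte markers also gave 8 higher (44.6% of all genes), as did limma on the deposited TPM (45.4%). Most of that hepatocyte sum was Alb, at 73183 ± 4819 CPM on CDAHFD and 101296 ± 9237 CPM on normal diet. Scaling to 16 pan-endothelial genes, which reads each gene relative to endothelial RNA, gave 5 higher and 2 lower (25.2% and 27.7% of all genes). Cd34 then rose by 2.56 ± 0.22, Plvap by 1.11 ± 0.11, Lyve1 by 0.72 ± 0.21, Stab1 by 0.57 ± 0.12 and Gata4 by 0.33 ± 0.11, while Oit3 fell by 0.33 and Kdr fell by 0.38 (adjusted p = 0.016 and 0.0152). Cd34, Plvap, Lyve1 and Stab1 were called higher with every scaling, filter, tool and omitted library tried.

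**Figure D3:**
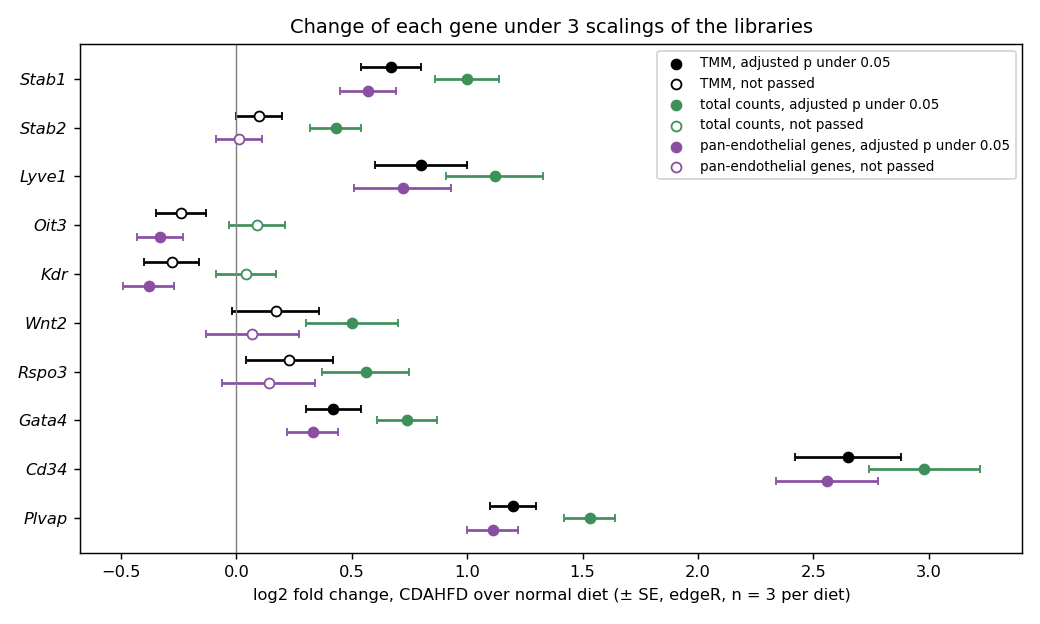
Log2 fold change of each gene, CDAHFD over normal diet, with its standard error (edgeR, n = 3 libraries per diet), under TMM (black), total counts (green) and scaling to pan-endothelial genes (purple), where filled points passed an adjusted p of 0.05. Cd34, Plvap, Lyve1, Stab1 and Gata4 are filled under all 3, and Oit3 and Kdr lie below 0 with TMM and the pan-endothelial genes but not with total counts.

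Other sinusoidal genes were called no more often than genes at large. With TMM 2 of the 14 tested rose, 3 fell and 9 missed the threshold, where 28.5% of all genes rose and 23.5% fell, with a list median log2 fold change of -0.10, and their summed level was 649 to 660 CPM on CDAHFD and 665 to 695 CPM on normal diet. With total counts 6 rose and 0 fell (median 0.22), where 44.0% of all genes rose and 8.08% fell. The C-type lectin gene Clec4g (-0.12 ± 0.11) and the Fc receptor gene Fcgr2b (0.18 ± 0.10), both used to define these cells, did not pass with TMM, though Fcgr2b did with total counts (0.50, edgeR adjusted p = 0.00143). Ehd3, an endocytic recycling gene, fell by 0.38 ± 0.10 (edgeR adjusted p = 0.00667) and Bmp6, an endothelial signal for hepcidin, by 0.46 ± 0.15 (adjusted p = 0.024), and neither passed with total counts (adjusted p = 0.675 and 0.505). The Bmp6 call was also lost without normal diet replicate 3 (adjusted p = 0.0668). Clec1b rose by 0.62 ± 0.15 (edgeR adjusted p = 0.00431).

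Of 16 tested genes shared by all endothelium 6 rose and 3 fell with TMM (median 0.14), near the 28.5% and 23.5% of all genes. With total counts 9 rose and 1 fell (median 0.46), against 44.0% and 8.08% of all genes. The junction genes Pecam1 (0.25 ± 0.12) and Cdh5 (0.03 ± 0.11) did not pass with TMM but did with total counts, at 0.57 and 0.36 (edgeR adjusted p = 0.00228 and 0.0232). S1pr1, the sphingosine 1-phosphate receptor of vessels, fell by 0.71 ± 0.11 (edgeR adjusted p = 0.000202), while Sox18 rose by 0.69 ± 0.13. Nos3, the endothelial nitric oxide synthase gene, rose by 0.61 ± 0.21 (edgeR adjusted p = 0.0312), and the call was lost without CDAHFD replicate 1 or 3 or normal diet replicate 1 or 2 (adjusted p = 0.0796 to 0.136). The summed level of the list was 485 to 555 CPM on CDAHFD and 485 to 536 CPM on normal diet.

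Markers of continuous, arterial, venous or activated endothelium rose beside Cd34 and Plvap. Of the 16 tested 8 rose and 0 fell, with a median log2 fold change of 0.91, where 28.5% of all genes rose. Vwf, the platelet adhesion factor of continuous endothelium, had 17.6, 17.8 and 23.9 CPM on CDAHFD, against 8.39, 8.32 and 10.7 CPM on normal diet, and rose by 1.11 ± 0.16. Cd93 rose by 2.19 ± 0.15 and the adhesion molecule genes Icam1 and Vcam1 by 1.94 ± 0.18 and 1.47 ± 0.16, and these 3 are also made by leukocytes or other liver cells. Emcn, a sialomucin of veins and capillaries, did not pass (0.15 ± 0.19).

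Of 9 basement membrane genes 7 rose and 0 fell, with a median log2 fold change of 1.26, where 28.5% of all genes rose and 23.5% fell. Col4a1, a collagen IV chain gene, had 195, 168 and 204 CPM on CDAHFD, against 38.4, 41.6 and 40.9 CPM on normal diet, and rose by 2.23 ± 0.11. Col4a2 rose by 1.80 ± 0.11, Nid1 by 2.20 ± 0.19 and Sparc by 1.89 ± 0.12. Stellate cells make these proteins as well, and the sum of their markers was higher in every CDAHFD library, as given above. Cholangiocyte markers, another source, summed to 18.2 to 27.7 CPM on CDAHFD and 4.50 to 8.34 CPM on normal diet, with 4 of 4 called higher, Krt7 by 2.01 ± 0.32 and Krt19 by 2.31 ± 0.39. Their part in the basement membrane result was not tested.

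**Figure D4:**
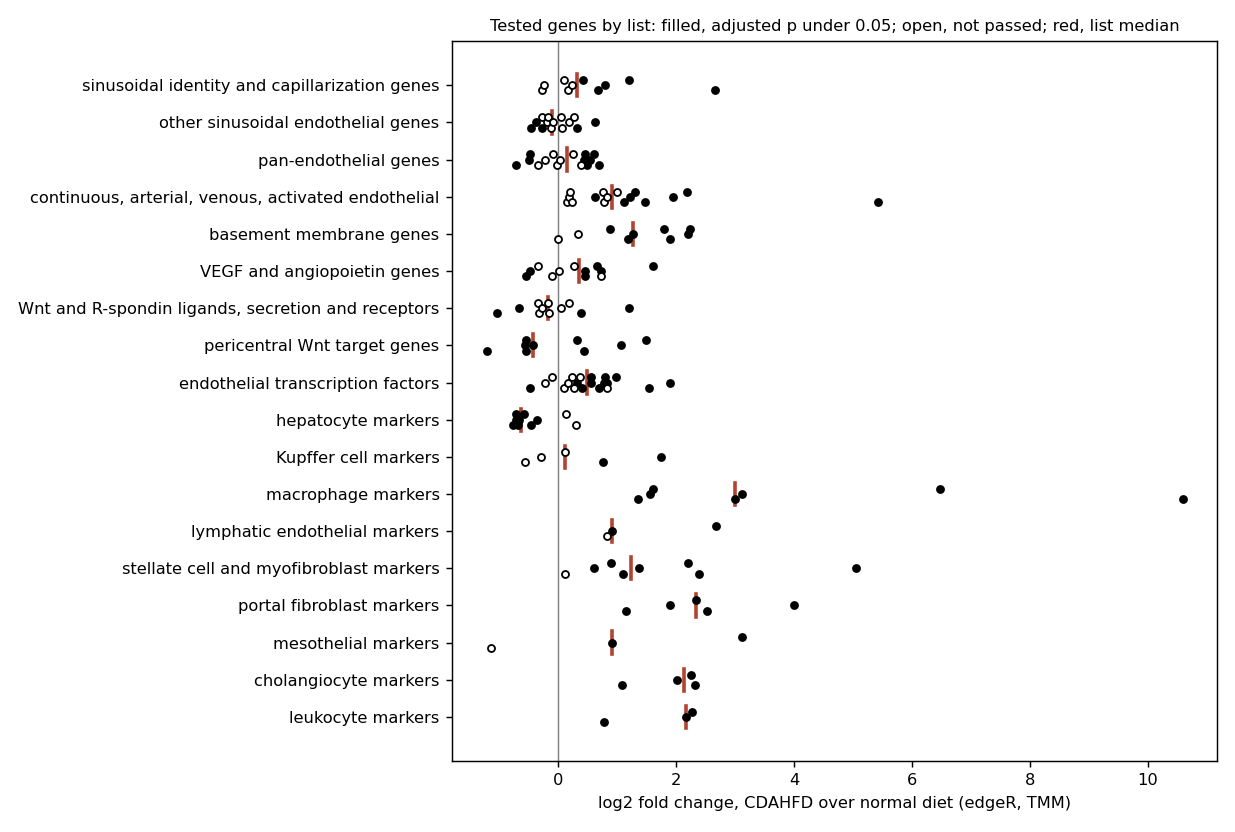
Log2 fold change of each tested gene, CDAHFD over normal diet (edgeR with TMM, n = 3 libraries per diet), by list, with filled points at an adjusted p under 0.05, open points not passed and the list median in red. The medians are 0.33 for the sinusoidal identity and capillarization genes, -0.10 for other sinusoidal genes, 0.14 for pan-endothelial genes, 0.91 for continuous and activated endothelial genes and 1.26 for basement membrane genes.

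The order of the 10 genes by TPM was alike at both ends. Plvap came first and Oit3 second in both diets, with no overlap between neighbours, at 50.5 ± 6.68 TPM on CDAHFD and 46.2 ± 3.10 TPM on normal diet for Oit3 (SD, n = 3 each). Gata4, Wnt2, Rspo3 and Cd34 followed each other at the low end in both diets. On CDAHFD the middle ran Lyve1 (38.8 ± 3.85 TPM), Stab1 (30.7 ± 5.12), Stab2 (29.5 ± 2.61) and Kdr (20.2 ± 3.32). On normal diet it ran Stab2 (21.3 ± 1.87 TPM), Kdr (19.0 ± 2.27), Lyve1 (17.4 ± 6.23) and Stab1 (14.9 ± 1.55). Neighbours overlapped on CDAHFD for Lyve1 with Stab1, Stab1 with Stab2 and Kdr with Gata4, and on normal diet for all neighbours from Stab2 to Stab1, so their order there is not settled.

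The spread among libraries of a diet differed between the 10 genes. The SD of log2 CPM was 0.01 on CDAHFD and 0.07 on normal diet for Plvap and 0.10 on CDAHFD and 0.06 on normal diet for Stab2, where the median over all tested genes was 0.15 on CDAHFD and 0.19 on normal diet. Cd34 was above that median in both diets, at 0.32 on CDAHFD and 0.26 on normal diet, while Lyve1 (0.13 on CDAHFD and 0.54 on normal diet), Wnt2 (0.13 and 0.29) and Rspo3 (0.04 and 0.30) were above it on normal diet. Stab1 (0.20 on CDAHFD and 0.18 on normal diet) and Kdr (0.19 and 0.15) were above it on CDAHFD. Likeness between genes was measured as the root mean square difference of their log2 CPM over the 6 libraries, each centred on its own mean, which includes the diet difference. Among the 10 genes Oit3 and Kdr were the closest pair, at 0.0818. Of 11833 other named genes at 1 CPM or more, the closest to Cd34 was Fam180a (0.0629), to Plvap Fam217b (0.0417), to Stab1 Mettl1 (0.0489), to Stab2 Dhx38 (0.0214) and to Lyve1 Mtus2 (0.122). The closest to Gata4 was Nkd1 (0.0316), to Kdr Farp1 (0.0197), to Oit3 Zfp235 (0.029), to Wnt2 Fam57a (0.0712) and to Rspo3 Snx32 (0.0504).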

How the data were processed

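Mouse liver RNA was sequenced in 6 libraries (3 CDAHFD, 3 normal diet), grouped by sample titles and by column prefixes (CD, ND) of the tables. Per the labels' protocols, 1 µg of TRIzol-extracted RNA went into a stranded mRNA kit. STAR 2.7.11a and GRCm39 come from the submitters' processing notes. The sources used here do not give the counting tool, its strand setting, the annotation or the gene lengths. The authors deposited raw counts per Ensembl gene as whole numbers and TPM, which sum to 1000000 per library. Of 56847 IDs, 51911 matched a symbol (GENCODE M21, GRCm38), so some symbols are older forms.

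Genes were kept with filterByExpr (minimum count 10; 14215 genes), scaled by TMM and tested for diet with edgeR 4.0.16 in R 4.3.3 (quasi-likelihood, Benjamini-Hochberg over all tested genes, threshold 0.05). Standard errors are the log2 fold change over the root of F. The pipeline was tested on simulated data in which few genes changed, as many up as down, so that test cannot speak to the choice of scaling. The 10 genes and 17 other lists were chosen with earlier results of these data known. Beyond the 10, genes were named by rule: the first 2 written in each list and, for endothelial and pathway lists, up to 3 called genes at 1 CPM or more on average, by size of change. A few genes sit in more than 1 list. Alternatives were scalings (RLE, total counts, TMM without the 20 most abundant genes, hepatocyte markers' summed counts, pan-endothelial genes' geometric mean), filters (none; 1 CPM in 3 libraries), DESeq2 1.42.0, limma 3.58.1 (voom; log2(TPM + 1) and log2(TPM + 0.1)), a replicate block and leaving out each library. Pairs of libraries of the same diet differed by a chi-square of 17.5 to 39.7 per degree of freedom (sampling noise gives about 1), so none is a copy of another.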

Additional observations from a re-analysis of the deposited data

How the results depend on the processing

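Over all genes, 4057 were higher and 3347 lower with TMM. Total counts gave 6249 and 1149, hepatocyte markers 6346 and 908, log2(TPM + 1) 6449 and 897 and log2(TPM + 0.1) 6433 and 897, and the share of calls that were higher was 54.8% under TMM, 84.5% for total counts, 87.5% for hepatocyte markers, 87.8% for log2(TPM + 1) and 47.6% for pan-endothelial genes. Of the 10 genes, 5 were higher and 0 lower. Total counts, hepatocyte markers and both TPM fits gave 8 higher, and pan-endothelial scaling gave 2 lower. Leaving out 1 library gave 4 to 5 higher and 0 to 2 lower, the 2 being Oit3 and Kdr without CDAHFD replicate 3. Of 100 genes of the 8 other endothelial and pathway lists 42 were higher and 15 lower, and 3 were lower with total counts, hepatocyte markers and both TPM fits. Without 1 library these were 28 to 37 higher and 14 to 15 lower.

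Signs turned as follows. Oit3 was -0.24 with TMM and 0.09 with total counts, 0.13 with hepatocyte markers and 0.12 with either TPM fit. Kdr was -0.28, and 0.04, 0.08 and 0.08 in the same order. Clec4g was -0.12, and 0.20, 0.24 and 0.24. Cdh5 (0.03) was -0.06 with pan-endothelial scaling and -0.05 without CDAHFD replicate 3 or normal diet replicate 1. Vegfb (0.01) was -0.01 with RLE and DESeq2, -0.08 with pan-endothelial scaling and -0.12 to -0.07 without CDAHFD replicate 1 or 3 or normal diet replicate 1 (-0.11). With 1 library left out, Emcn (0.15) was -0.03 to 0.22, below 0 without CDAHFD replicate 1, and Wnt9b (0.18) was -0.11 to 0.26, below 0 without CDAHFD replicate 3. The cause was not tested. Beyond the calls named with their genes above, Nos3, Angpt2, Axin2, Glul and Zfpm2 were lost under at least 1 other scaling or tool.

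With the replicate number as a block, 4046 genes were higher and 3312 lower, and the 10 genes kept their calls. Deviations of same-numbered libraries correlated at r = -0.0471, 0.0688 and 0.118, not all over 0.1, so the numbers were not taken to pair the samples. Among genes named by rule from the endothelial and pathway lists, only Glul and Angpt2 lost their call there (adjusted p = 0.0745 and 0.0576). The other named genes were not checked there. The lowest counts among the 10 genes were those of Cd34, at 23 to 33 per normal diet library.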

Other observations

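The following genes of the endothelial lists fell outside the naming rule and were named after their values were seen. Sele, the E-selectin gene of cytokine-activated endothelium, had 18, 21 and 34 counts in the CDAHFD libraries, against 0, 1 and 0 counts in the normal diet libraries. Ackr1, a chemokine-binding protein of venules, had 21, 35 and 37 counts on CDAHFD, against 3, 12 and 14 on normal diet, and rose by 1.30 ± 0.45 (edgeR adjusted p = 0.0289). Fabp4, a fatty acid binding protein of continuous capillaries, adipocytes and macrophages, had 27.2 ± 4.45 CPM on CDAHFD and 11.7 ± 0.196 CPM on normal diet (SD, n = 3 each). Klf2 and Klf4, transcription factors that respond to blood flow in endothelium, rose by 0.55 ± 0.17 and 0.77 ± 0.20 (edgeR adjusted p = 0.0188 and 0.00816). Mesothelial markers summed to 2.57 to 4.48 CPM on CDAHFD and 1.95 to 4.61 CPM on normal diet. Of the 3 tested 2 rose, where 28.5% of all genes rose and 23.5% fell. Wt1 rose by 3.11 ± 0.63 (1.18 ± 0.621 CPM on CDAHFD and 0.131 ± 0.101 CPM on normal diet, edgeR adjusted p = 0.0016) and Gpm6a rose by 0.91 ± 0.28 (adjusted p = 0.0164). Msln did not pass (-1.14 ± 0.53). Upk3b missed the filter on low counts, with 2, 0 and 9 counts on CDAHFD, against 51, 15 and 5 on normal diet. The markers of this list thus did not all move the same way.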
